A study of Homo sapiens with 2 samples.

Results

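Named antisense RNAs were described in 2 libraries of the human ovarian adenocarcinoma line SKOV3. They were taken from the deposited table as all genes on chromosomes 1 to 22 whose symbol ends in -AS, alone or with 1 digit. This gave 630 of 16978 listed genes (3.71%), with 1956 of 47892 transcripts. Each was set beside the gene named before the hyphen, called its partner here, which was listed for 428 members (418 distinct genes) and not listed for 202. The first library is from SKOV3-OR, which grew in olaparib, an inhibitor of the DNA repair enzyme PARP, at a fraction of its IC50 for at least 3 months. The other is from untreated parental SKOV3. Both carry the genotype label WT, and the labels do not say whether SKOV3-OR is a clone or a pool, or whether olaparib was present at harvest. Ribosomal RNA was removed from Trizol-extracted total RNA before library construction. With 1 library per line, no test was made, no difference has a replicate check, and all comparisons describe these 2 libraries.

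A natural antisense RNA is transcribed from the strand opposite another gene, its sense partner. Many start at or near the partner's promoter and run away from it, others run into the partner's end, and others lie within it. Single antisense RNAs are known to act on their partner in cis, through transcription, chromatin marks or RNA duplexes, and others act away from their locus or have no known function. The symbol records the position of the gene and says nothing of such an action.

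The table gives 1 normalized value per transcript and library in a unit that its header does not name, and these are called listed values. Counts worked out from the authors' deposited fold changes followed the listed value times the length of the locus, introns included. Whether the values themselves are per length of the locus or of the exons was not settled. Levels of different genes are therefore compared as listed values only. The transcripts listed for a protein-coding partner are mostly annotated as non-coding, and a partner's sum does not stand for its mRNA. The sources used here do not say whether reads were counted by strand, so reads from overlapping exons of an antisense RNA and its partner cannot be told apart. Of 10 epithelial ovarian line markers 8 were listed, with a summed value of 402 in SKOV3-OR and 248 in parental cells, mostly from KRT8 (318 against 166) and KRT7 (73.3 against 62.6). KRT18 (5.83 against 14.3) and ERBB2 (3.84 against 5.37) were lower in SKOV3-OR. EPCAM, KRT19 and CDH1 were near 0 in both libraries, at 0.0863 or less. MUC16 and WT1 were not listed, nor were any of the 4 immune or 3 endothelial markers. Of 4 fibroblast markers 2 were listed, at a sum of 0.212 in SKOV3-OR and 0.273 in parental cells. Transcripts listed for markers may also be non-coding, so absence or a low value does not speak for the mRNA.

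The sequences of 9 of the 10 antisense RNAs that differed by at least 2-fold between the lines are shown first, since the results turn on them. For 4 of them the start region is given, from 250 bases before to 50 bases after a gene start in RefSeq (GRCh38.p14), in the direction of the antisense RNA. Capitals mark short promoter motifs, on either strand. The MAP3K14-AS1 window is chr17:45247675-45247974, plus strand, and holds 4 GC boxes (GGGCGG) and 29 CG dinucleotides, and a GC box is a binding motif of SP1-type factors. The TTN-AS1 window is chr2:178522941-178523240, plus strand, with 2 overlapping matches of the TATA box (TATAAA), 1 on each strand, and 1 CCAAT box on the minus strand. The HOXD-AS2 window is chr2:176137049-176137348, minus strand, with 1 CCAAT box. The ASB16-AS1 window is chr17:44186668-44186967, minus strand, with 1 GC box.
MAP3K14-AS1: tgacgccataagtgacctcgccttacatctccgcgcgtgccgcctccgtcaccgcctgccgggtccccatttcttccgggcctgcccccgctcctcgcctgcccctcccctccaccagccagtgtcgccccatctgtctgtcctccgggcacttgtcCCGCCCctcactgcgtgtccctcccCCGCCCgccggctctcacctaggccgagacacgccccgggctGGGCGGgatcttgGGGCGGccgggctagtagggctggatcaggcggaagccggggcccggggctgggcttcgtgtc
TTN-AS1: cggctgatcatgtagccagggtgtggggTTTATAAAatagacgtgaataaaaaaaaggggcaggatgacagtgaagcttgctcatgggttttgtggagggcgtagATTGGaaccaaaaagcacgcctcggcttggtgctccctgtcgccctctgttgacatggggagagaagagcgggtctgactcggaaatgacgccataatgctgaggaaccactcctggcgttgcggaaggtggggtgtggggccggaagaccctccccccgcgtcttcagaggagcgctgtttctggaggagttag
HOXD-AS2: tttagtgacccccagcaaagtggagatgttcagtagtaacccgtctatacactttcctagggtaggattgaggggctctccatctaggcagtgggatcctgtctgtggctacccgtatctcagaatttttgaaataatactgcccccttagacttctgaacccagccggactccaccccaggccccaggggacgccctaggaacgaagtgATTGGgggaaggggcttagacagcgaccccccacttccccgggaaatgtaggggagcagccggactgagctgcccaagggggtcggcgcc
ASB16-AS1: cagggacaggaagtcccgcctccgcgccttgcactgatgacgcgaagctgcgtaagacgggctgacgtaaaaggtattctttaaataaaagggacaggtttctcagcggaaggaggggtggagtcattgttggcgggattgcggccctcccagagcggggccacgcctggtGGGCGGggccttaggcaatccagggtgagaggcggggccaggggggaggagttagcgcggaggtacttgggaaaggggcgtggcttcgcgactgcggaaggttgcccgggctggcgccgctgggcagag

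For the other 5 the spliced RNA is given over 60 bases on each side of an exon junction of the leading transcript, as DNA letters from GENCODE 29 (GRCh38). The 12 capitals mark the last 6 bases of the upstream exon and the first 6 of the downstream exon. The genomic ends of the stretches are chr5:43575876-43583526 for NNT-AS1-204, chr20:44695448-44696062 for KCNK15-AS1-201, chr19:45641707-45641938 for EML2-AS1-201, chr7:140696761-140696974 for NDUFB2-AS1-201 and chr2:38036585-38066952 for RMDN2-AS1-203. EML2-AS1-201 lies on the plus strand and the others on the minus strand.
NNT-AS1-204: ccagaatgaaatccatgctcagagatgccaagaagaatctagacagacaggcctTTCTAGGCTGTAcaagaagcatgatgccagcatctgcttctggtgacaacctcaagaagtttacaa
KCNK15-AS1-201: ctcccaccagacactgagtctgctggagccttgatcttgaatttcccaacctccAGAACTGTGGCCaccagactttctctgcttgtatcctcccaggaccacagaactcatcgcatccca
EML2-AS1-201: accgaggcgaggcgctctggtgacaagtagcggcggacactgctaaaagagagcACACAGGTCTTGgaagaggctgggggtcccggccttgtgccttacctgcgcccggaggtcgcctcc
NDUFB2-AS1-201: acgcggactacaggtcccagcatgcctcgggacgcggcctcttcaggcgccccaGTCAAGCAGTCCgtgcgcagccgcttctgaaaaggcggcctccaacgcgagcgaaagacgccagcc
RMDN2-AS1-203: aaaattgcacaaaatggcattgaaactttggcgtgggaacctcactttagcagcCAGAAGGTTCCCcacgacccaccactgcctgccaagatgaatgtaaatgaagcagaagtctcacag

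Most named antisense RNAs were low in both lines. The median member had a summed listed value of 0.219 in SKOV3-OR and 0.229 in parental cells, against medians of 0.441 and 0.371 over all genes. Together the members took 1.46% of all listed value in SKOV3-OR and 1.55% in parental cells. In SKOV3-OR 159 members reached a value of 1, and in parental cells 149 did. The mean of the 2 libraries reached 1 in 152 members, which are called expressed, and 478 lay below it. Of these 478, 19 reached 1 in SKOV3-OR and 10 in parental cells.

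The 37 members with a value of at least 5 in either line were led by IGFL2-AS1 (ENSG00000268621, chromosome 19, 46189029 to 46203160), at 79.7 in SKOV3-OR and 113.8 in parental cells. It was the most abundant member in both libraries, while its partner IGFL2, a gene of the insulin growth factor-like family, was listed at 0.196 in SKOV3-OR and 0.0479 in parental cells. FGD5-AS1 followed at 24.8 in SKOV3-OR and 19.5 in parental cells. URB1-AS1, named after a ribosome biogenesis gene, had 23.4 in SKOV3-OR and 16.8 in parental cells. PITPNA-AS1, named after a phosphatidylinositol transfer protein, had 16.2 in SKOV3-OR and 17.0 in parental cells. None of these 4 differed by 2-fold. PAX8-AS1, named after a transcription factor used as a marker of Müllerian tumours, had 8.09 in SKOV3-OR and 11.2 in parental cells, with PAX8 at 0.489 and 0.0738. OIP5-AS1 had 8.73 in SKOV3-OR and 7.54 in parental cells.

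**Figure D1:**
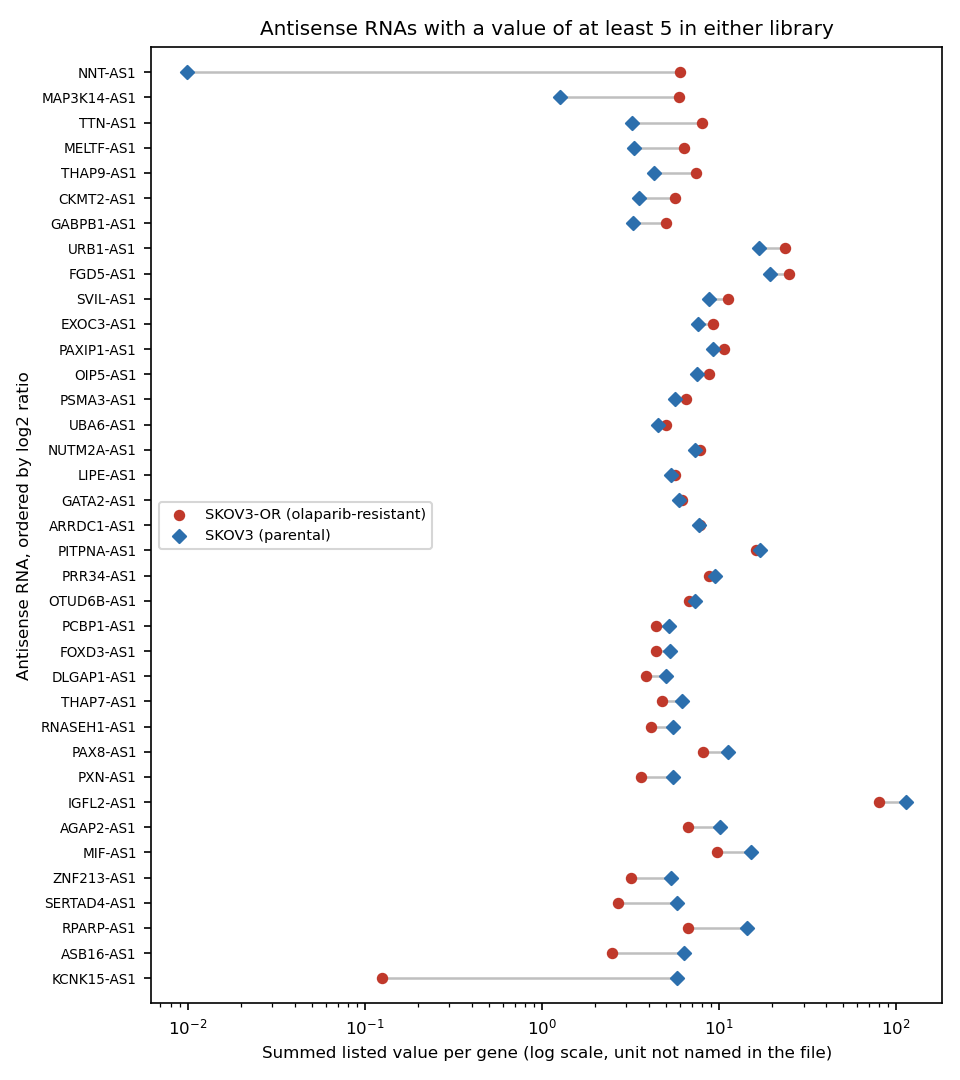
Summed listed value (log axis) of the 37 antisense RNAs that reached 5 in either library, 1 row per RNA in the order of the log2 ratio. Circles are SKOV3-OR and diamonds parental SKOV3, 1 library each, joined by a line. NNT-AS1 and KCNK15-AS1 stand apart with 1 value far below 1, and IGFL2-AS1 has the highest values of both libraries.

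Lines were compared by the log2 ratio, log2(SKOV3-OR value + 1) minus log2(parental value + 1). The added 1 understates differences of low genes. Past 2-fold, 4 of the 152 expressed members (2.63%) were higher in SKOV3-OR and 6 (3.95%) lower, and 142 lay between. The 6 include ASB16-AS1, whose direction depends on values listed beside a count of 0, and with such values set to 0 the counts were 5 and 5. The same threshold was passed by 12.9% of all 5767 expressed genes, 8.5% on the higher and 4.37% on the lower side. The share of members that were higher is below that background, and the share that were lower is close to it in this setting. The median log2 ratio of the members was -0.01 (quartiles -0.30 and 0.33), against 0.16 over all expressed genes. The 204 expressed partner genes had a median of 0.29, with 21 (10.3%) higher and 7 (3.43%) lower. With the median of all expressed genes set to 0, 3 members (1.97%) passed 2-fold on the higher and 12 (7.89%) on the lower side, against 5.74% and 6.35% of all genes, and the members' median was -0.18.

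The members' median lay below that of all genes at each level of expression. For the 70 members with a mean of 1 to 2 it was -0.01, against 0.15 for all genes in that range. For the 60 with a mean of 2 to 5 it was -0.06, against 0.18, and for the 22 above 5 it was 0.06, against 0.17. These ranges were chosen after the values were seen.

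**Figure D2:**
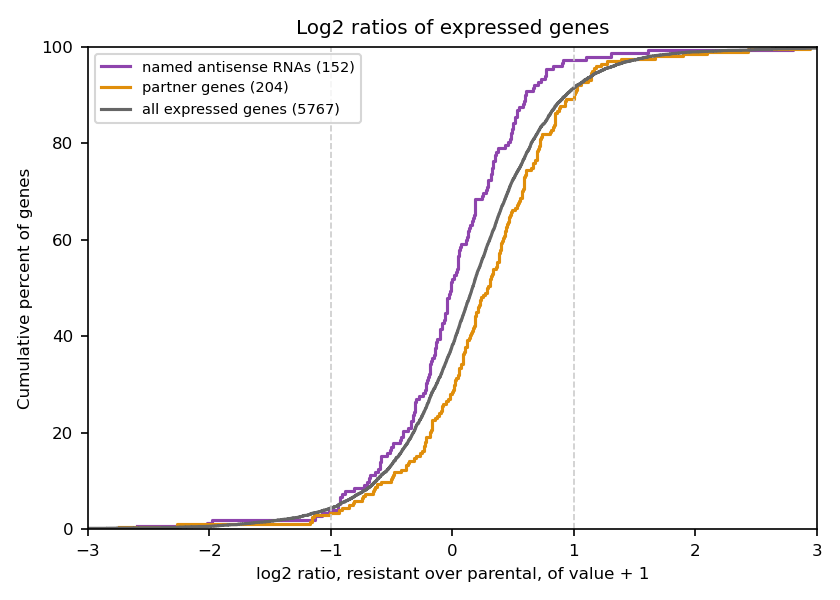
Cumulative percent of genes by log2 ratio (SKOV3-OR over parental, of value + 1) for 152 expressed antisense RNAs, 204 expressed partner genes and all 5767 expressed genes, drawn between -3 and 3. Dashed lines mark 2-fold. The antisense curve lies left of the others around 0, with medians of -0.01, 0.29 and 0.16.

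NNT-AS1 (ENSG00000248092, chromosome 5, 43571594 to 43603138) had the highest log2 ratio of the members. It starts 538 bases from the start of NNT, the mitochondrial transhydrogenase that makes NADPH, on the other strand. It was listed at 6.05 in SKOV3-OR and 0.00992 in parental cells (log2 ratio 2.80), so nearly all of its signal was in the resistant line. NNT itself was at 0.366 in SKOV3-OR and 0.0927 in parental cells. NNT-AS1-204, whose junction is shown above, carried this difference, with 6.05 in SKOV3-OR and 6.5e-05 in parental cells. In the authors' deposited table its log2 fold change was 13.2 (adjusted p = 6.7e-59), which corresponds to counts of 9018 in SKOV3-OR and 1 in parental cells.

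MAP3K14-AS1 (ENSG00000267278, chromosome 17, 45247916 to 45269814) had 5.94 in SKOV3-OR and 1.27 in parental cells, a log2 ratio of 1.61. It runs into the end of MAP3K14, the kinase NIK of the non-canonical NF-kB pathway, which had 1.06 in SKOV3-OR and 1.32 in parental cells. The antisense RNA was high in SKOV3-OR and the partner was not. Of its 12 transcripts MAP3K14-AS1-201 was the largest in SKOV3-OR, at 2.24 against 0.169 in parental cells. In the authors' deposited table its log2 fold change was 3.44 (adjusted p = 5.06e-13), corresponding to counts of 2068 in SKOV3-OR and 226 in parental cells.

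RMDN2-AS1 (ENSG00000235848, chromosome 2, 38035888 to 38067041) has 1 listed transcript and lies inside RMDN2, a microtubule-binding protein gene. It was at 3.27 in SKOV3-OR and 0.727 in parental cells (log2 ratio 1.31), with RMDN2 at 0.0872 and 0.132. The authors' deposited table lists a log2 fold change of 1.89 for it (adjusted p = 3.5e-05). TTN-AS1 (ENSG00000237298, chromosome 2, 178521183 to 178779952), opposite the muscle gene titin, had 8.01 in SKOV3-OR and 3.20 in parental cells (log2 ratio 1.10). Its 28 transcripts include 14 with a count of 0 in 1 library, and titin was not listed. The log2 ratio of TTN-AS1 was under 1, at 0.94, with the median of all genes set to 0, and 0.74 with its transcript of largest mean alone.

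The next 6 members by log2 ratio, among those with a value of at least 2 in either line, did not reach 2-fold. SLC9A3-AS1, named after a sodium-proton exchanger, had 3.67 in SKOV3-OR and 1.49 in parental cells (log2 ratio 0.91). TMCC1-AS1 had 2.57 in SKOV3-OR and 0.909 in parental cells (0.90), while TMCC1, a gene of an endoplasmic reticulum protein, had 3.797 and 4.650. SLC16A1-AS1 had 2.18 in SKOV3-OR and 0.790 in parental cells (0.83). Its partner SLC16A1, the lactate transporter MCT1, was level at 0.911 in SKOV3-OR and 0.908 in parental cells. WAC-AS1, MELTF-AS1 and WARS2-AS1 completed them, with log2 ratios of 0.77, 0.76 and 0.73. With the transcript of largest mean alone, WAC-AS1, MELTF-AS1, TMCC1-AS1 and WARS2-AS1 passed 2-fold (1.32, 1.36, 1.15 and 1.06), and SLC9A3-AS1 and SLC16A1-AS1 were at 0.21 and 0.23. SLC9A3-AS1 was at 1.42 with values beside a count of 0 set to 0. With a pseudocount of 0.1, SLC9A3-AS1, TMCC1-AS1, SLC16A1-AS1 and WAC-AS1 passed 2-fold (1.25, 1.40, 1.36 and 1.13).

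KCNK15-AS1 (ENSG00000244558, chromosome 20, 44695076 to 44696084) had the lowest log2 ratio of the members. Its 1 listed transcript was at 0.125 in SKOV3-OR and 5.80 in parental cells (log2 ratio -2.60). The gene is named after KCNK15, a potassium channel gene, which was not listed, and the listed transcript lies upstream of KCNK15 and does not overlap it. In the authors' deposited table its log2 fold change was -5.78 (adjusted p = 1.93e-19), corresponding to counts of 6 in SKOV3-OR and 401 in parental cells.

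EML2-AS1 (ENSG00000267757, chromosome 19, 45641494 to 45642789) and NDUFB2-AS1 (ENSG00000240889, chromosome 7, 140695336 to 140697077) both lie inside their partners. EML2-AS1 was at 0.0825 in SKOV3-OR and 3.39 in parental cells (log2 ratio -2.02), while EML2, a microtubule-associated protein gene, was at 3.42 and 2.86. Annotated exons of EML2 cover 95.0% of the exon bases of EML2-AS1, so reads of the pair may be split between them. The fold change of EML2-AS1-201 corresponds to counts of 0 in SKOV3-OR and 127 in parental cells. NDUFB2-AS1 was at 0.0178 in SKOV3-OR and 3.02 in parental cells (log2 ratio -1.98), and the counts behind its fold change were 2 in SKOV3-OR and 361 in parental cells. NDUFB2, a subunit of mitochondrial complex I, was at 1.32 in SKOV3-OR and 0.392 in parental cells, so that the antisense RNA was the larger of the pair in parental cells only.

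HOXD-AS2 (ENSG00000237380, chromosome 2, 176121611 to 176137098), from the HOXD cluster of developmental transcription factors, had 1.63 in SKOV3-OR and 4.77 in parental cells (log2 ratio -1.13). All 3 of its transcripts were lower in SKOV3-OR, HOXD-AS2-201 most in amount, at 1.46 against 4.02. RPARP-AS1 (ENSG00000269609, chromosome 10, 102449816 to 102461106) had 6.67 in SKOV3-OR and 14.5 in parental cells (log2 ratio -1.01). Its leading transcript RPARP-AS1-201 was at 1.83 in SKOV3-OR and 6.01 in parental cells.

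ASB16-AS1 (ENSG00000267080, chromosome 17, 44175968 to 44186723) had 2.47 in SKOV3-OR and 6.30 in parental cells (log2 ratio -1.07), but the deposited columns contradict each other for its main transcript. ASB16-AS1-206 was listed at 0.987 in SKOV3-OR and 4.74 in parental cells. Its log2 fold change in the authors' deposited table was 12.1, higher in SKOV3-OR (adjusted p = 5.57e-29), corresponding to counts of 489 in SKOV3-OR and 0 in parental cells. That parental value was the highest of any member transcript listed beside a count of 0. With such values set to 0 the log2 ratio of ASB16-AS1 was 0.51, so its direction is not settled by these data.

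The other members among the 10 lowest with a value of at least 2 in either line did not reach 2-fold. C1RL-AS1, named after a complement protease-like gene, had 1.61 in SKOV3-OR and 4.02 in parental cells (log2 ratio -0.94). HOXC13-AS had 0.588 in SKOV3-OR and 2.05 in parental cells (-0.94). DARS-AS1, named after the cytosolic aspartyl-tRNA synthetase gene, had 1.06 in SKOV3-OR and 2.91 in parental cells (-0.92). SPINT1-AS1, named after a serine protease inhibitor, had 1.40 in SKOV3-OR and 3.52 in parental cells (-0.91). With the median of all genes set to 0 these 4 were past 2-fold, between -1.11 and -1.08, and with a pseudocount of 0.1 between -1.64 and -1.27. With the transcript of largest mean alone C1RL-AS1 was at -1.67, DARS-AS1 at -1.43 and SPINT1-AS1 at -1.19. DARS-AS1 was at -1.11 with discordant transcripts left out. In these the log2 ratio of the listed values, with nothing added, differs from the deposited fold change by more than 0.3 after an offset of 0.28. They may differ in size alone or in direction too.

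In 56 pairs both the antisense RNA and its partner were expressed. The antisense RNA had the lower log2 ratio of the 2 in 39 pairs and the higher in 17, with a median difference of -0.20 (quartiles -0.58 and 0.21). Both were higher in SKOV3-OR in 18 pairs and both lower in 6. In 23 pairs the antisense RNA was lower and the partner higher, and in 9 pairs it was the reverse. Across the 56 pairs the log2 ratios had a Pearson r of -0.04 and a Spearman rho of -0.01. This is a description, since the pairs share their libraries and the 2 genes of a pair may share reads. The median share of the antisense RNA in the summed value of its pair was 41% in SKOV3-OR and 46.4% in parental cells.

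**Figure D3:**
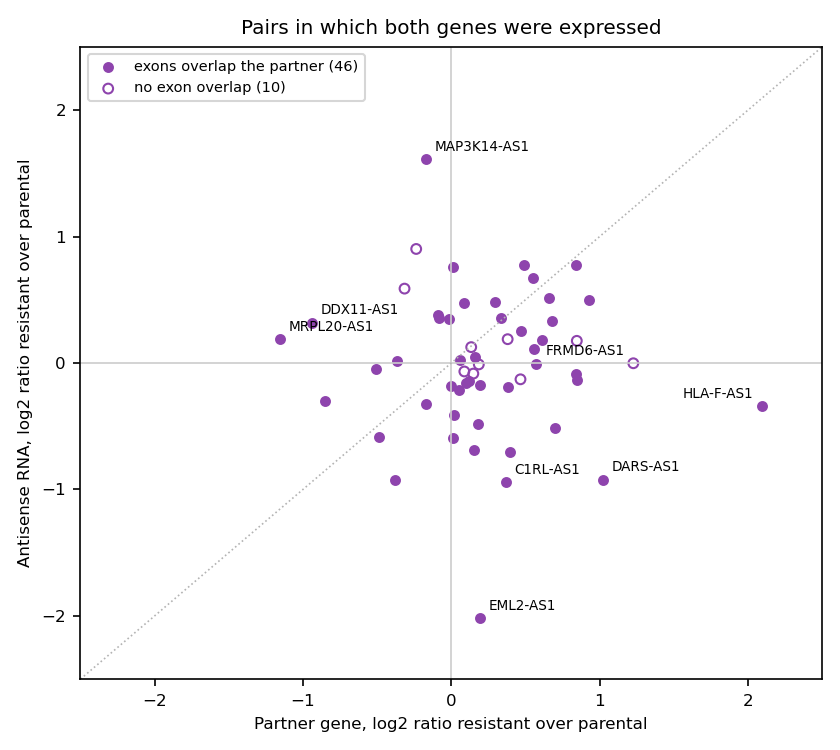
Log2 ratio of the partner gene (x axis) and of the antisense RNA (y axis), SKOV3-OR over parental, for the 56 pairs in which both were expressed. Filled points are the 46 pairs with exon overlap and open points the 10 without, and the dotted line marks equal ratios. The 8 labelled pairs differ most, and most points lie below the dotted line (39 of 56).

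Of the 8 pairs with the widest difference, 5 had a lower and 3 a higher log2 ratio of the antisense RNA. HLA-F-AS1 had 1.54 in SKOV3-OR and 2.22 in parental cells (log2 ratio -0.34). Its partner HLA-F, a non-classical MHC class I gene, had 17.5 in SKOV3-OR and 3.34 in parental cells (2.09). The partner was high in SKOV3-OR only, and whether reads of other class I genes were counted for it was not tested. DARS was at 14.8 in SKOV3-OR and 6.78 in parental cells (1.02), in the direction opposite to DARS-AS1. FRMD6, a gene of the Hippo pathway, had 2.75 in SKOV3-OR and 0.601 in parental cells, while FRMD6-AS1 was level at 1.137 and 1.139. On the other side, MRPL20, a mitochondrial ribosomal protein gene, had 0.426 in SKOV3-OR and 2.18 in parental cells (-1.16), against 4.84 and 4.12 for MRPL20-AS1 (0.19). The helicase gene DDX11, which has near-identical copies in the genome, had 5.92 in SKOV3-OR and 12.2 in parental cells, against 1.91 and 1.33 for DDX11-AS1.

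The 8 pairs with both log2 ratios on the same side of 0 and the largest sum were chosen by these values. MIF-AS1 had 9.72 in SKOV3-OR and 15.1 in parental cells, and MIF, the macrophage migration inhibitory factor gene, had 12.96 and 18.54. Their log2 ratios were -0.59 and -0.49, and 46.5% of the exon bases of MIF-AS1 are covered by MIF exons. INTS6-AS1 had 1.78 in SKOV3-OR and 0.624 in parental cells (0.77), and INTS6, a subunit of the Integrator complex, had 10.3 and 5.32 (0.84). KTN1-AS1 had 3.33 in SKOV3-OR and 2.03 in parental cells (0.52), and KTN1, the kinectin gene, had 5.95 and 3.39 (0.66). NIFK-AS1, CCDC18-AS1 and WAC-AS1 were also higher with their partners, with antisense log2 ratios of 0.50, 0.67 and 0.77 and partner log2 ratios of 0.93, 0.55 and 0.49. LAMA5-AS1 and HOXA10-AS were lower with theirs, at -0.92 and -0.30, against -0.38 for LAMA5 and -0.85 for HOXA10. With discordant transcripts left out HOXA10-AS was at 0.84, opposite in direction to HOXA10.

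Among the 105 expressed members with a listed partner, the antisense RNA was the larger of the pair in 67 in SKOV3-OR and 69 in parental cells, and in 61 in both. These orders, like the pair shares above, compare listed values only. A partner's sum does not stand for its mRNA, and the length scale of the values is not settled. The order changed in 14 pairs, in 6 of which the antisense RNA was larger in SKOV3-OR only. These include NNT-AS1, MAP3K14-AS1, SLC16A1-AS1, BTG3-AS1 and SRP14-AS1. SRP14-AS1 had 3.32 in SKOV3-OR and 1.87 in parental cells, and SRP14, a signal recognition particle gene, had 3.24 and 4.28. In the other 8 the antisense RNA was larger in parental cells only, among them EML2-AS1, NDUFB2-AS1, C1RL-AS1 and AZIN1-AS1. AZIN1-AS1 had 1.96 in SKOV3-OR and 3.77 in parental cells, and AZIN1, the antizyme inhibitor gene, had 2.65 and 2.29.

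By GENCODE 29, 241 members lie head to head with their partner and overlap it, and 57 lie head to head without overlap. Another 119 overlap it tail to tail, 156 lie inside it and 40 span it. IGFL2-AS1 lies tail to tail and apart from IGFL2, and MYCBP2-AS2 is annotated on the strand of MYCBP2. For 15 members the name before the hyphen is no annotated gene, as in HOXD-AS2. Among expressed members the median log2 ratio was -0.06 for 56 head to head overlapping, 0.13 for 15 head to head apart, and 0.01 for 29 tail to tail overlapping. It was -0.05 for 28 inside the partner and 0.01 for 18 around it. These medians are all below the 0.16 of all expressed genes. The quartiles of the head to head overlapping members, -0.41 and 0.26, lay further apart than the medians of any pair of layouts.

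**Figure D4:**
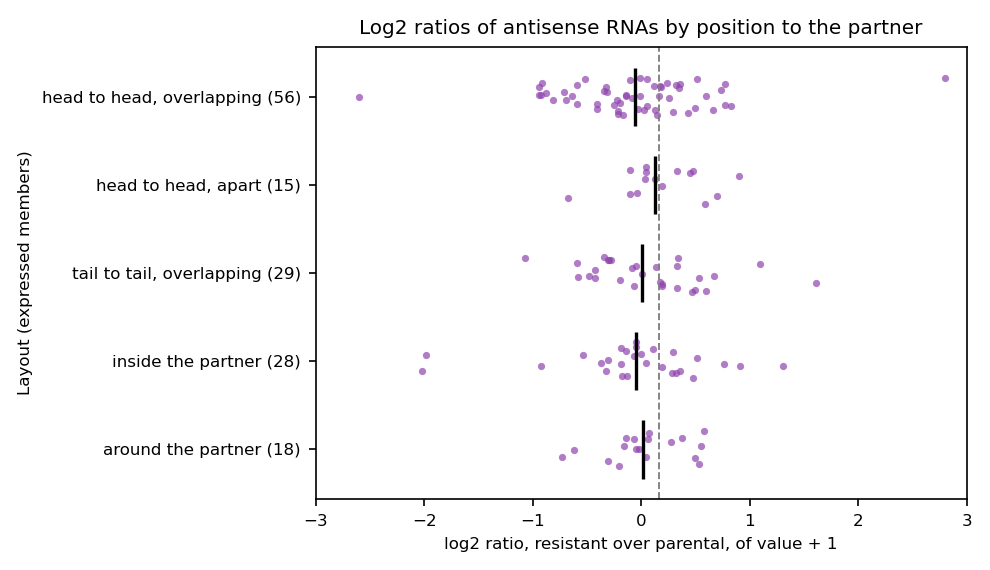
Log2 ratio (SKOV3-OR over parental, of value + 1) of expressed antisense RNAs by position relative to the partner, 1 point per RNA with the number in brackets. The vertical spread within a layout is random, the black bar is the median of each layout, and the dashed line is the median of all expressed genes (0.16). The medians lie between -0.06 and 0.13.

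Members whose start lies within 1000 bases of the partner's start, on the opposite strand, were expressed about as often as the others. Of 194 such members 51 (26.3%) were expressed, against 96 of 421 others (22.8%). Their median log2 ratio was 0.05, against -0.04 for the others. Annotated exons overlapped in 429 of 615 pairs with an annotated partner, by a median of 13% of the antisense exon bases. In the 46 both-expressed pairs with such an overlap Pearson's r of the log2 ratios was -0.01, and in the 10 without it was -0.53. The limit of 1000 bases and this split were chosen after the values were seen.

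Start regions were compared with all 35116 RefSeq gene starts of the same length (498 windows for 426 members, of which 142 windows for 116 expressed members). A GC box (GGGCGG) was present in 62.7% of windows of expressed members, 52.6% of all member windows and 45% of all windows. A TATA box (TATAAA) was present in 4.23% of windows of expressed members, 8.63% of member windows and 11.5% of all windows. A CCAAT box was present in 35.2% of windows of expressed members, 30.5% of member windows and 34.6% of all windows. The median number of CG dinucleotides was 26, 21 and 14. Windows of expressed members were thus richer in CG, GC boxes and NRF1 motifs and held fewer TATA box matches than all windows. The windows of all genes were not filtered for expression, so a contrast with expressed genes in general was not tested. The MAP3K14-AS1 window shown above holds 4 GC boxes. In the TTN-AS1 window the TATA box matches lie near its upstream end, far from the gene start. Motifs were counted at any position and on either strand, so a match need not be a working promoter element.

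Of 120 expressed members with several listed transcripts, 46 (38.3%) had a different leading transcript in the 2 lines, against 34.9% of all 5032 such genes. The largest change in the share of 1 transcript was 17.4 percentage points at the median, against 16.2 over all genes. It was at least 20 points in 53 members (44.2%), against 39.1% of all genes, so members were close to the background in both. The gene sum could differ little where its transcripts differed widely. HOXA10-AS-202 made up 95.9% of HOXA10-AS in SKOV3-OR and 6.004% in parental cells, and HOXA10-AS-203 made up 4.03% and 92.6%, with gene sums of 1.03 and 1.49. ARF4-AS1-201 made up 10.5% of its gene in SKOV3-OR and 86.2% in parental cells, where the sums were 1.27 and 1.18. All listed transcripts of ARF4-AS1 are discordant, with listed values and deposited fold change that differ in size but have the same direction. ARF4-AS1-201 was listed at 0.134 in SKOV3-OR beside a count of 0. The share of SVIL-AS1-211 was 5.05% in SKOV3-OR and 73.8% in parental cells, while SVIL-AS1-204 took 52.4% and 0.352%. NRSN2-AS1-201 took 83.5% in SKOV3-OR and 22.6% in parental cells, and C1RL-AS1-204 took 17.9% and 77.2%. Shares depend on the length scale. By the counts that correspond to the fold changes, C1RL-AS1-201 was larger than C1RL-AS1-204 in both lines. Its counts were 610 in SKOV3-OR and 628 in parental cells, against 26 and 404.

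**Figure D5:**
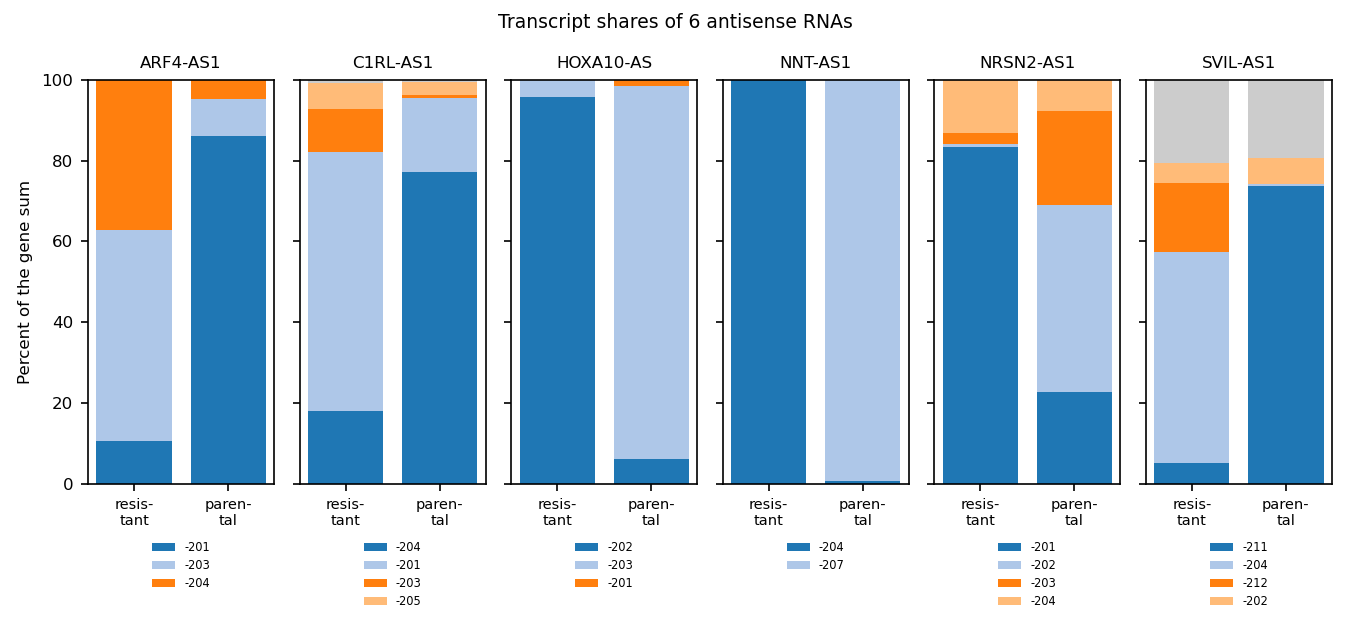
Percent of the summed listed value of a gene taken by each transcript, for the 6 antisense RNAs with the largest change of 1 share, with SKOV3-OR left and parental SKOV3 right in each panel. Colours mark up to 4 transcripts per gene, named by their suffix, and grey marks the rest. NNT-AS1-204 fills 99.998% of the SKOV3-OR bar and 0.655% of the parental bar.

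FGD5-AS1, the second most abundant member, showed the same at higher values. FGD5-AS1-209 was at 13.03 in SKOV3-OR and 1.96 in parental cells, and FGD5-AS1-203 was at 0.0329 and 4.03. FGD5-AS1-208 was level at 10.7 and 10.9. The authors' deposited table gives FGD5-AS1-209 a log2 fold change of 2.45 (adjusted p = 1e-07) and FGD5-AS1-203 one of -7.15 (adjusted p = 1.5e-28). Transcripts of 1 gene share exons, and the division of reads among them was not tested.

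The counts that correspond to the authors' fold changes bear on many of these transcripts. For 818 of 1956 member transcripts (41.8%) the count was 0 in 1 library (437 in SKOV3-OR and 381 in parental cells), against 22.3% of all transcripts, although a value above 0 was listed there. That value was small in most, with a median of 0.00346, and above 0.1 in 30. An adjusted p below 0.05 in the authors' deposited table was given to 573 member transcripts (29.3%) that were higher in SKOV3-OR and to 616 (31.5%) that were lower. Over all transcripts these shares were 23.6% and 22.3%. Of the member transcripts so called, 342 of the higher and 381 of the lower had a count of 0 in a library. These p-values compare 2 libraries.

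Lists of members were described by their counts. The lists were chosen with earlier results of these data known, so a count beside the share of all genes is no test. Of 78 antisense RNAs often studied in cancers 58 were listed and 26 expressed, of which 3 were at least 2-fold higher (NNT-AS1, MAP3K14-AS1 and TTN-AS1) and 2 lower (KCNK15-AS1 and, with its direction unsettled, ASB16-AS1), against 8.5% and 4.37% of all expressed genes, with a median log2 ratio of 0.10. Among them OIP5-AS1, PSMA3-AS1 and THAP9-AS1 had log2 ratios of 0.19, 0.18 and 0.66, and the first 2 were below 0 with the transcript of largest mean alone (-0.43 and -0.06). Of 11 HOX cluster members 5 were expressed, 1 of them at least 2-fold lower (HOXD-AS2) and none higher, with a median of -0.30. These 5 are too few to read against the 4.37% lower and 8.5% higher of all expressed genes. HOXA-AS2 was the only 1 of the 5 above 0, at 2.55 in SKOV3-OR and 1.33 in parental cells, and HOXC-AS1 had 3.26 and 3.84. HOXA10-AS also lay above 0 with discordant transcripts left out, as given above. Of 22 members named after zinc finger genes 6 were expressed and none differed by 2-fold (median -0.02). That count is too small to read against the 12.9% of all expressed genes. ZNF213-AS1 was at 3.19 in SKOV3-OR and 5.32 in parental cells.

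Olaparib acts on DNA repair, and members named after genome maintenance genes were few, with 6 listed and 1 expressed. MCM3AP-AS1 had 0.851 in SKOV3-OR and 0.586 in parental cells, and SMC2-AS1, named after a condensin subunit, had 1.03 and 0.557. Both had a mean below 1 and do not count as expressed, so no difference is read from them. Of 10 members named after mitochondrial genes 4 were expressed. They were NNT-AS1 (2.80), MRPL20-AS1 (0.19), SUCLG2-AS1 (0.04) and NDUFB2-AS1 (-1.98), in log2 ratios, so that 1 was at least 2-fold higher and 1 lower, a count too small to read against the 12.9% of all expressed genes. IDH1, an isocitrate dehydrogenase gene, had 38.9 in SKOV3-OR and 6.37 in parental cells, while IDH1-AS1 was near 0 in both, at 0.00482 and 0.00741.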

How the data were processed

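The deposited table holds a normalized expression signal for each transcript in each library, and per the file headers its unit is not named. Each transcript also has the authors' deposited log2 fold change, p-value and adjusted p-value, and the sources used here do not state the test. Per the submitters' processing notes, HISAT2 and StringTie were used; the notes name mm10, whereas the table carries human loci. All 630 members were matched by identifier to GENCODE 29 (GRCh38), and of their transcripts 70.4% were found, 87.5% of these with the same start and end. Transcript values were summed per gene. Genes with a mean of at least 1 were called expressed, a pseudocount of 1 was added, and a fold of 2 was the threshold. Counts were read from the deposited fold changes with constants of 0.1142 (SKOV3-OR) and 0.1358 (parental). They followed locus length, need not be sequenced reads, and sequencing depth is unknown.

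Named by rule, and shown in part, are members that reach a value of 5 and the 10 highest and 10 lowest ratios where a value reaches 2. The rule also takes the 8 most divergent and 8 most parallel pairs, and 6 members by transcript share. Other members were named as examples of lists, layouts and pairs that change order, under no set rule. Among them are HOXA-AS2, HOXC-AS1, SUCLG2-AS1, MCM3AP-AS1, SMC2-AS1, IDH1-AS1, SRP14-AS1, AZIN1-AS1 and BTG3-AS1. They are not among the 62 genes followed in other settings. Members and lists were chosen with earlier results of these data known. Promoter windows, motifs and printed sequences were chosen after the values were seen, among windows that hold no annotated UTR. Python 3.11.15, pandas 2.3.3 and NumPy 2.4.6 were used, and the calculation was checked on simulated data. No column was left unmapped, and 1 member is not reported by name here. Alternatives were another pseudocount, filter or scaling, the transcript of largest mean, and other handling of values beside a count of 0.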

Additional observations from a re-analysis of the deposited data

How the results depend on the processing

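The number of members at least 2-fold higher and lower in SKOV3-OR (4 and 6) depended on the settings. A pseudocount of 0.1 gave 10 and 16 of 152 members, against 16.6% and 7.53% of all genes in that setting. One of 5 gave 1 and 1 of 152, against 1.8% and 1.18%. A mean of at least 5 gave 1 and 1 of 22, against 12.3% and 6.34%. Without a filter on low values it was 6 and 7 of 630, against 3.12% and 1.62%. With values beside a count of 0 set to 0 it was 5 and 5 of 152, against 8.95% and 4.37%. With discordant transcripts left out it was 3 and 4 of 140, against 8.41% and 3.87%. With the median of all genes set to 0 it was 3 and 12 of 152, against 5.74% and 6.35%, with a members' median of -0.18. With the transcript of largest mean alone it was 5 and 11 of 109, against 12.1% and 7.94%. The median difference of antisense RNA and partner was -0.09 with a pseudocount of 5 and between -0.29 and -0.16 in the other settings. With a mean of at least 5 it rests on 3 pairs. With the transcript of largest mean alone the antisense RNA had the lower log2 ratio in 17 of 30 pairs, against 39 of 56 above. ASB16-AS1 turned to 0.51 with values beside a count of 0 set to 0. In other settings the 62 genes named by rule had 368 values. Of these, 327 stayed on the same side of 2-fold or moved by less than 0.1, and 40 crossed 2-fold by more. Among members past 2-fold ASB16-AS1 alone changed sign. Over all 62 genes 16 of the values, of 13 genes, had the other sign, and 6 of these differed by at least 0.5. They were SVIL-AS1 (-2.25), ARF4-AS1 (-0.83), OIP5-AS1 (-0.43) and NRSN2-AS1 (0.61) with the transcript of largest mean, HOXA10-AS (0.84) with discordant transcripts left out, and ASB16-AS1. NNT-AS1, EML2-AS1, NDUFB2-AS1 and ARF4-AS1 have no value once transcripts are left out whose listed values and deposited fold change disagree. No paired analysis was possible because each line has 1 library, and none could be left out.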

Other observations

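A second deposited list gives 20 transcripts, none of them of a named antisense RNA, with the same fold changes as the table used here. Of its listed values, 9 in 8 transcripts differ from the table by round amounts, for example a transcript of ATP6AP2 in SKOV3-OR, at 3.93 in the list and 33.9 in the table, and SLC45A4-206 in parental cells, at 8.73 in the list and 15.7 in the table. The count that corresponds to the fold change gives 33.8 for the ATP6AP2 transcript and 15.7 for SLC45A4-206, near the values of the table. Values of the list were not used here.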
